A study of Mus musculus with 8 samples.

Results

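Myc encodes a transcription factor that pairs with Max and drives ribosome production, metabolism and cell division, and its relatives Mycn and Mycl encode proteins of the same kind. In blood stem and progenitor cells Myc is known to be controlled from far away, through a group of enhancers that lies about 1.7 Mb downstream of the gene, beyond the noncoding RNA gene Pvt1 and a long stretch with few genes. The separate elements of that group are known for differing in the blood cell types in which they are active. Accessible chromatin marks where proteins bind such elements, but accessibility alone does not show that an element is active or which gene it acts on.

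ATAC-seq, which uses Tn5 transposase to cut DNA where chromatin is open, was run on cells sorted from the marrow of female mice, 4.5 months old and of the strain 129Sv4/Jae x B6. The 8 libraries form 4 groups of 2, each made from about 10000 cells: LSK+ WT, LSK+ XistΔ/Δ, LSK- WT and LSK- XistΔ/Δ. LSK+ cells were lineage-negative, SCA-1+ and c-KIT+ and hold stem and early progenitor cells, and LSK- cells were lineage-negative, SCA-1- and c-KIT+ and hold committed progenitors. In XistΔ/Δ mice the floxed alleles of Xist, the noncoding RNA that silences 1 X chromosome in female cells, had been deleted by a Cre transgene driven by the Vav1 promoter, which acts throughout the blood system. The comparisons therefore ask how accessibility around the Myc genes differed between LSK+ and LSK- cells, and whether the loss of Xist altered it.

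The regions described are all those with a peak between 100 kb before the Myc transcription start site (TSS) and 2 Mb after the end of the gene (chr15:61885391-63990374, mm10), and within 50 kb of Mycn (chr12:12886093-12991914) or Mycl (chr4:122945652-123052485). Peaks of the 8 lists that overlapped by at least 1 bp were merged. This gave 124 of the 123260 regions of all lists: 100 in the Myc window, 7 around Mycn and 17 around Mycl. Of these, 16 had a peak in every list (12.9%, against 17.3% of all regions) and 24 in 1 list only. Each region is named here by the distance of its strongest summit from the TSS of its gene, so that +1663 kb lies 1663 kb downstream of the Myc TSS. The strength of a peak is given as its percentile within its own list, ranked by -log10 p, with 100 for the strongest peak of the list.

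The lists held 29829 to 82488 peaks in LSK+ and 37578 to 91590 in LSK- libraries, and the genome-wide background pileup recovered from them, the fragments expected over a base, ran from 0.482 for LSK+ WT replicate 2 to 3.87 for LSK- XistΔ/Δ replicate 1. LSK+ WT replicate 2 was the shallowest library. Replicate 1 of every group was sequenced on one platform and replicate 2 on another, and the study's methods call the replicates biological but the labels do not say whether they were separate mice, so a p-value measures only the spread between these libraries. The Gata1 promoter had a peak in all 4 LSK- lists and in no LSK+ list, whereas the promoters of the T cell genes Cd3e, Cd4 and Cd8a had no peak in any list. As means over a list, a missing peak counted as 0, the 8 LSK+ markers stood at 54.8 to 67.5 in LSK+ and 37.7 to 60.5 in LSK- libraries, and the 8 LSK- markers at 25.5 to 54.6 and 52.7 to 75.4. The lists for B cells (0 to 23.1 over all libraries) and mature myeloid cells (6.63 to 49.7) overlapped between the cell types. That for endothelial cells stood at 23.1 to 62.8 in LSK+ and 18.9 to 47.0 in LSK- libraries and was higher in LSK+ in 4 of 4 pairs of the same genotype and replicate number. Against the cell type names, Ly6a, the gene of SCA-1, had a promoter peak only in LSK- XistΔ/Δ replicate 1, at the 29.6th percentile, and with the replicate term described below Mecom was lower (-0.49 log2 units, limma, adjusted p = 0.0159) and Klf1 higher (0.66, adjusted p = 0.0123) in LSK+. As cells were pooled in each library, fewer cells with an open region and a region less open in each cell cannot be told apart.

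Seen along the chromosome, regions of the Myc window were densest from Myc to the end of Pvt1 and in the distal cluster. They were spaced more widely in the desert between Pvt1 and the cluster. No list had a peak in the 100 kb before Myc except at -2 kb. There were 3 regions at the promoter and within the gene and 46 between the end of Myc and the end of Pvt1. The following desert had 17 regions, at +405 to +1515 kb, none of them in all 8 lists, and the distal cluster had 25, at +1616 to +1843 kb, of which 6 were in all 8. Another 9 regions lay beyond it, among the Gsdmc genes and in Fam49b.

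**Figure D1:**
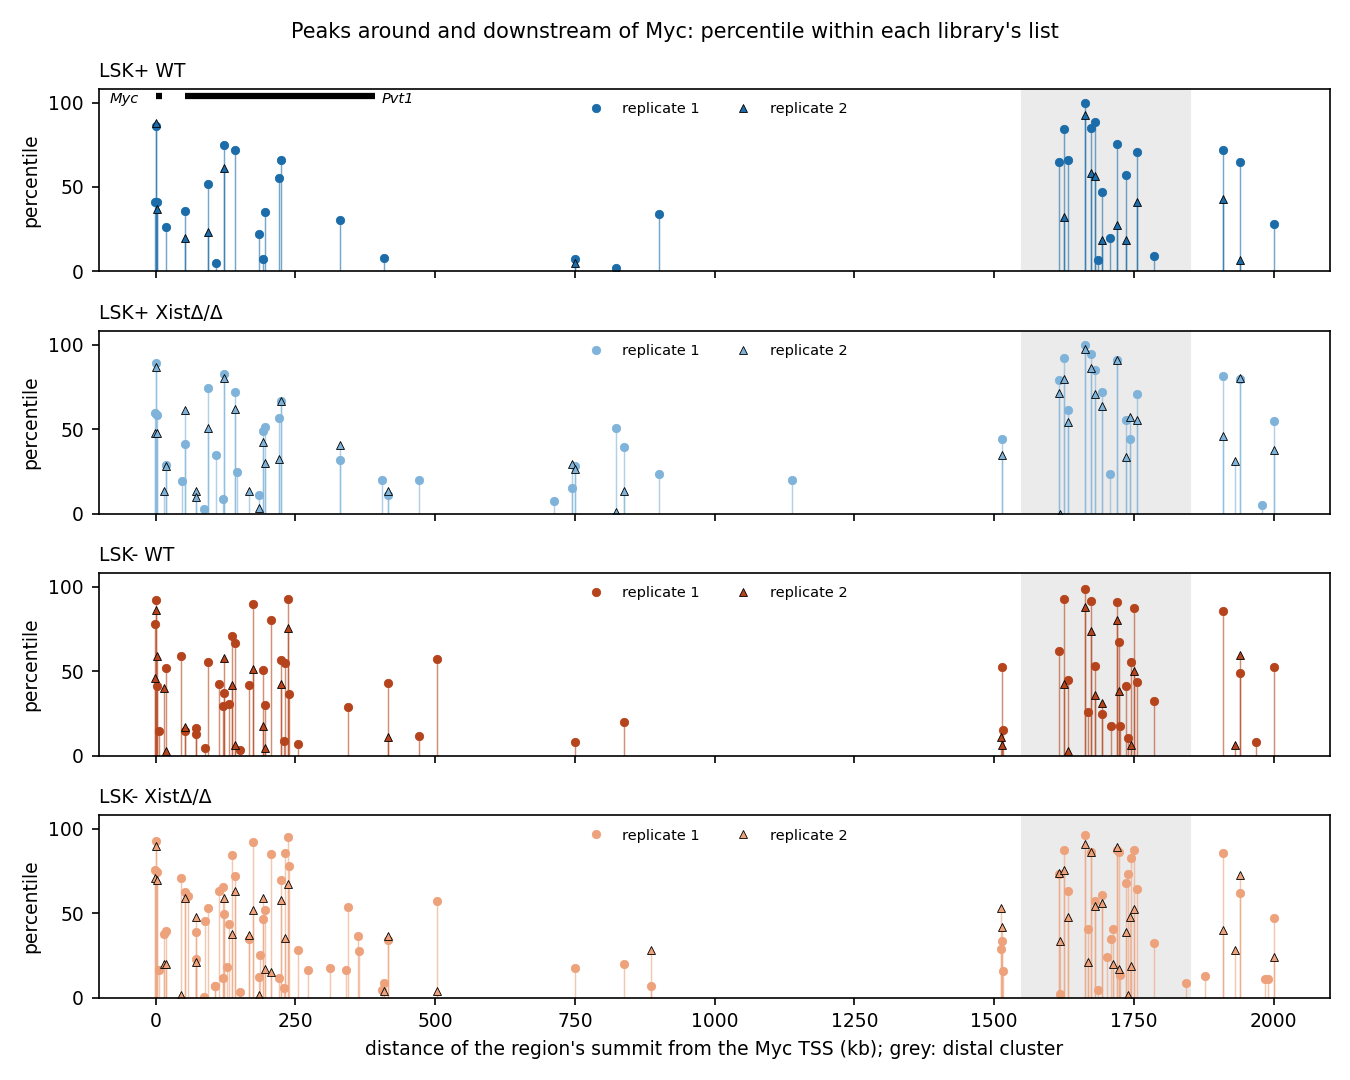
Percentile of each peak within its library's list (vertical axis, 0 to 100) against the distance of the region's summit from the Myc TSS in kb, one panel for each group; circles are replicate 1 and triangles replicate 2, and grey marks the distal cluster. All 4 groups share a tall peak at Myc and the +1663 kb peak of the distal cluster, while the peaks at +174 and +236 kb appear in the LSK- panels only.

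The elements of the distal cluster on which the results turn are shown by the summit base and 100 bases on either side of it, read on the plus strand of GRCm38.p6, the assembly that mm10 stands for. Capitals mark the letters of 5 motif families, searched on both strands. The family bound by GATA factors was searched as either AGATAA or else TGATAA, and that of ETS factors as either GAGGAA or else CCGGAA. RUNX factors were given by either TGTGGT or else TGCGGT, E-box factors by either CAGCTG or else CAGATG, and factors of the C/EBP family by TTGCNNAA. No 2 marked motifs overlap. The first 6 are the cluster regions with a peak in all 8 lists, in the order of their lowest percentile.

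+1663 kb, chr15:63648216-63648416: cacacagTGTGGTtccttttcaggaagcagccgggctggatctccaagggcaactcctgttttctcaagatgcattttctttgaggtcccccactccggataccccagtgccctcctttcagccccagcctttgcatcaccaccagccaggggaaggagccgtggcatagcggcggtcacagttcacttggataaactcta
+1673 kb, chr15:63658022-63658222: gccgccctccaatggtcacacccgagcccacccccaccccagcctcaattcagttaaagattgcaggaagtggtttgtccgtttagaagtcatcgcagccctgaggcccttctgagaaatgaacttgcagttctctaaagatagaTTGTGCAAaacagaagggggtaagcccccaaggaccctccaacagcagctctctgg
+1680 kb, chr15:63665567-63665767: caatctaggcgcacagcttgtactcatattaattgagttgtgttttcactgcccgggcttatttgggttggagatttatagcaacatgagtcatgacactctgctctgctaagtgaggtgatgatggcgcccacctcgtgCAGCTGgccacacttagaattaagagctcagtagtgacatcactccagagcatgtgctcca
+1626 kb, chr15:63611259-63611459: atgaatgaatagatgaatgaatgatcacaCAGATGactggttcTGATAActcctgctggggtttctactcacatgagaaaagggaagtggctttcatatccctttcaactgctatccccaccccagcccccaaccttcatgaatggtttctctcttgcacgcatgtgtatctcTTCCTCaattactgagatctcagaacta
+1719 kb, chr15:63704735-63704935: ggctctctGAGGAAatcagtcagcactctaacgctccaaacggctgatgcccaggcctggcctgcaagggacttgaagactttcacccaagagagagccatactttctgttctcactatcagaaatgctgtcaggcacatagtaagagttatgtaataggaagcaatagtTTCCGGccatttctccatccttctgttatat
+1694 kb, chr15:63679070-63679270: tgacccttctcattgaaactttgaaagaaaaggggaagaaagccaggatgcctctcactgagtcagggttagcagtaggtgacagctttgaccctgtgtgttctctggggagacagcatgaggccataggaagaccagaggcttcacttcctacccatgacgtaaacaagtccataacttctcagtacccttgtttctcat

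Another 4 cluster regions are shown because they were assigned to 1 cell type by presence, as described further on: +1751, +1724 and +1746 kb to LSK- cells and +1755 kb to LSK+ cells.

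+1751 kb, chr15:63736426-63736626: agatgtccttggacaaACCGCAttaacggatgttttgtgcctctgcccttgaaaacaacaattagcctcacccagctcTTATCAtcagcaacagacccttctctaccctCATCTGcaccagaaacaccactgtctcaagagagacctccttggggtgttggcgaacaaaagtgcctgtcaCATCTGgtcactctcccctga
+1755 kb, chr15:63740622-63740822: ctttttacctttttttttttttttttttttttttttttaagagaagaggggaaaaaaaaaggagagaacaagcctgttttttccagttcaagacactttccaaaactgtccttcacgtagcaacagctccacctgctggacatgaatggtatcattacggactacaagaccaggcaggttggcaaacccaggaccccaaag
+1724 kb, chr15:63709597-63709797: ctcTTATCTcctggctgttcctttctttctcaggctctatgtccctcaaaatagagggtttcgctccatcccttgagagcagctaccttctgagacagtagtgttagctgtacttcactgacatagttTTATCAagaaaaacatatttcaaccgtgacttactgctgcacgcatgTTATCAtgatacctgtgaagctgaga
+1746 kb, chr15:63730946-63731146: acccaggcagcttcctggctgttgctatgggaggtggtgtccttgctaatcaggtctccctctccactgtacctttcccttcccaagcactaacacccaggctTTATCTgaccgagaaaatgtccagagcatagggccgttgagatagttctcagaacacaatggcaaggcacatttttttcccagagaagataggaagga

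The GATA letters, which GATA1 and GATA2 recognise in blood cells, were found in the 3 LSK- windows, with 3 matches at +1724 kb and 1 each at +1746 and +1751 kb. Of the 6 windows open in all lists, only +1626 kb held them. For comparison, 25.6% of the windows of all 123260 regions held a GATA match. Of the 90636 regions more than 3 kb from a TSS 29% did, and of the 25 cluster regions 9 did. The LSK- regions in Pvt1 described further on are not among the windows shown. ETS letters were present in +1626 and +1719 kb (34.3% of all regions), RUNX letters in +1663 and +1751 kb (27.9%), E-box letters in +1626, +1680 and +1751 kb (29.3%) and C/EBP letters in +1673 kb (9.99%). The windows at +1694 and +1755 kb held none of the letters searched, and none of these matches shows a bound factor.

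The Myc promoter (Myc, ENSMUSG00000022346.15, chr15:61985391-61990374, plus strand) was open in every library. Its region, chr15:61984856-61985982, has its strongest summit in an untranslated part of a Myc exon, 3 bp from an annotated TSS. It stood at the 86.3rd and 87.9th percentile for LSK+ WT, the 89.3rd and 86.8th for LSK+ XistΔ/Δ, the 92.2nd and 86.4th for LSK- WT and the 92.7th and 89.7th for LSK- XistΔ/Δ. The groups overlapped, with means of 87.1 ± 1.12 (SD, n = 2), 88.0 ± 1.74, 89.3 ± 4.04 and 91.2 ± 2.09. LSK+ cells were 2.7 points below LSK- cells, in the same direction in 3 of 4 pairs of libraries with the same genotype and replicate number (exact two-sided permutation test within genotype, p = 0.167), and XistΔ/Δ cells 1.43 points above WT (exact p = 0.444). The genotype difference turned to -6.15 points in lists cut to equal length (exact permutation p = 0.111) and to -1.18 with peaks ranked by fold enrichment (exact p = 0.944). This design cannot give a p below 0.0556. The fit of log2 fold enrichment described below gave the Myc promoter a difference of -0.08 (95% interval -0.63 to 0.47) between LSK+ and LSK- and of -0.34 (-0.89 to 0.21) between XistΔ/Δ and WT.

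A second region inside the gene, at +2 kb in an intron of Myc, was also found in all 8 lists, at the 37.0th to 58.6th percentile in LSK+ and the 41.5th to 74.6th in LSK- libraries. The region at -2 kb, chr15:61983378-61983641, was missing from LSK+ WT replicate 2 and ranged from 41.1 to 59.6 in the other LSK+ lists against 45.9 to 78.2 in LSK- lists. The peak caller scored each peak against the local background of the same library, and around the Myc promoter that background was high, 7.58 to 27.5 fragments in LSK+ and 13.2 to 66.1 in LSK- libraries. Percentiles and fold enrichments of the promoter are therefore set low relative to its fragments.

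Mycn (ENSMUSG00000037169.15, chr12:12936093-12941914, minus strand) and Mycl (ENSMUSG00000028654.13, chr4:122995652-123002485, plus strand) also had open promoters in all 8 libraries. The Mycn region, chr12:12942218-12942833, lies 637 bp from the nearest TSS, upstream of the gene. Its percentiles were 86.9 and 76.1 for LSK+ WT, 89.8 and 88.9 for LSK+ XistΔ/Δ, 90.4 and 68.0 for LSK- WT and 88.6 and 84.6 for LSK- XistΔ/Δ. Neither the cell types (2.51 points, exact permutation p = 0.556) nor the genotypes (7.6 points, exact p = 0.278) differed by more than the spread between libraries, and both WT groups had the wider spread. Both directions depended on the ranking. With peaks ranked by fold enrichment LSK+ minus LSK- was -11.5 points, negative in 4 of 4 pairs, at the smallest p the design allows (exact permutation p = 0.0556), and in lists of equal length XistΔ/Δ minus WT was -1.06 points (exact p = 0.889).

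The Mycl region, chr4:122995352-122996080, was the most variable of the 3 promoters. It stood at 78.3 and 12.4 for LSK+ WT, 74.7 and 61.5 for LSK+ XistΔ/Δ, 78.1 and 64.6 for LSK- WT and 87.2 and 77.4 for LSK- XistΔ/Δ. The low value came from the shallowest library, where the summit had 10 fragments. Without LSK+ WT replicate 2, the difference between LSK+ and LSK- fell from -20.1 points (exact permutation p = 0.278) to -3.66, and that between XistΔ/Δ and WT from 16.8 points (exact p = 0.444) to 0.381. In equal-length lists the latter was -1.91 (exact permutation p = 0.944).

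**Figure D2:**
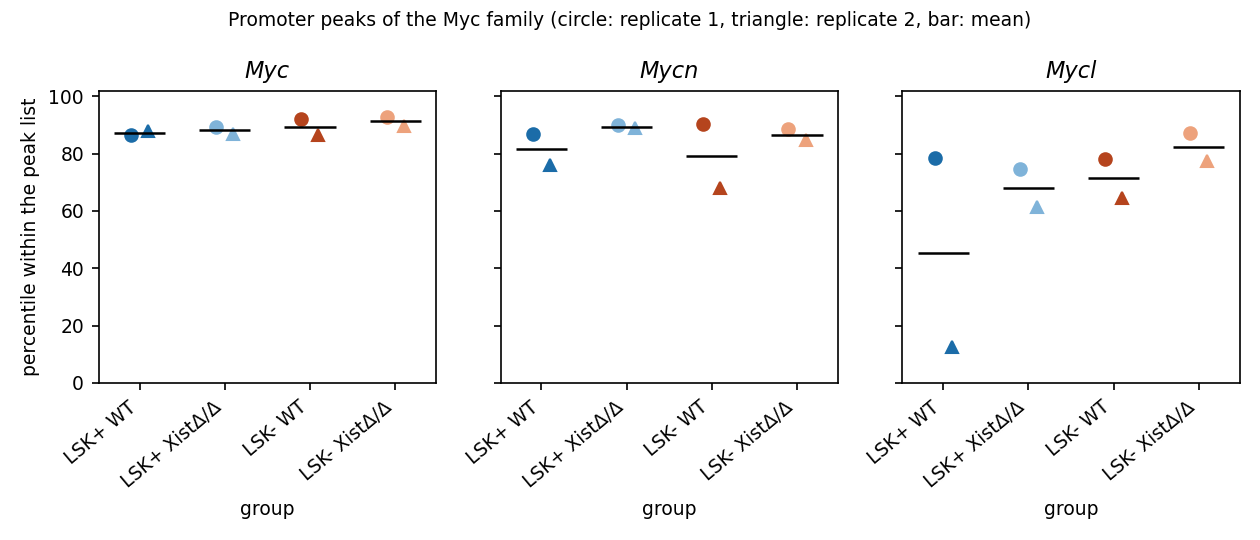
Percentile within the peak list (vertical axis, 0 to 100) of the promoter peaks of Myc, Mycn and Mycl in the 4 groups (horizontal axis); circles are replicate 1, triangles replicate 2 and bars the mean of the 2. Myc stays between 86.3 and 92.7, whereas Mycl drops to 12.4 for LSK+ WT replicate 2.

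The strongest element of the distal cluster, at +1663 kb (chr15:63647990-63648622, in an intron of the long noncoding RNA gene Gm41335), was among the strongest peaks of the LSK+ lists. It ranked 154th and 2107th of all peaks in LSK+ WT, 46th and 1636th for LSK+ XistΔ/Δ, 960th and 4483rd for LSK- WT and 3460th and 5437th for LSK- XistΔ/Δ. In percentiles these were 99.8, 92.9, 99.9, 97.4, 98.7, 88.1, 96.2 and 91.3. In each replicate and genotype the LSK+ library had the higher percentile, but the ranges of the cell types overlapped. In fold enrichment LSK+ minus LSK- was 0.10 on the log2 scale (95% interval -0.21 to 0.42), which did not exceed the spread, and was positive in 3 of 4 pairs. XistΔ/Δ minus WT was -0.13 (-0.45 to 0.18), with the WT library higher in 4 of 4 pairs.

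Summit pileups, the fragments over the strongest base, allow the element to be set beside the Myc promoter within each library, where depth cancels. The +1663 kb summit had 210 and 86 fragments for LSK+ WT against 117 and 88 at the Myc promoter. The corresponding values were 356 and 245 against 186 and 167 for LSK+ XistΔ/Δ, 171 and 93 against 168 and 130 for LSK- WT, and 307 and 127 against 403 and 172 for LSK- XistΔ/Δ. The distal element thus had 0.977 to 1.91 fragments for each at the promoter in LSK+ and 0.715 to 1.02 in LSK- libraries. This pileup ratio was higher in LSK+ in all 4 pairs of libraries, although LSK+ WT replicate 2 lay below LSK- WT replicate 1. In fold enrichment, where each summit is set against its local background, the distal element was 1.69 to 2.74 times the promoter in LSK+ and 2.01 to 2.69 times in LSK- libraries, and higher in LSK+ in 2 of 4 pairs. The local background at the promoter was 1.46 to 1.91 times that at the distal element in LSK+ and 2.81 to 3.47 times in LSK- libraries. These ratios were chosen after their values were seen and were not tested.

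Beside it, 5 other cluster regions were open in every library. The +1673 kb region (chr15:63657694-63658946) stood at 85.2 and 58.5 for LSK+ WT, 94.3 and 86.1 for LSK+ XistΔ/Δ, 91.3 and 74.1 for LSK- WT and 86.2 and 86.6 for LSK- XistΔ/Δ. The +1626 kb region (chr15:63611033-63611644) stood at 84.5 and 32.2, 92.0 and 79.9, 92.8 and 42.5, and 87.4 and 75.6 in the same order. At both, WT replicate 2 was the lowest library of each cell type, and the cell types overlapped. The weakest of the 6 at its median was +1694 kb (chr15:63678647-63679499), with 47.0 and 18.5, 72.1 and 63.5, 24.8 and 31.3, and 60.6 and 56.0, each XistΔ/Δ library being above both WT libraries of its cell type in percentile. By rank this order held in LSK+ (23009th and 23076th for XistΔ/Δ, 33612th and 24039th for WT) but not in LSK- cells. There WT replicate 2 (25581st) was ahead of both XistΔ/Δ libraries (36098th and 27519th), whose lists were longer.

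The +1719 kb region (chr15:63704397-63705319) had the widest range of percentiles of the 6. It stood at 75.5 and 27.5 for LSK+ WT and at 90.8 in both LSK+ XistΔ/Δ libraries, against 91.1 and 80.2 for LSK- WT and 87.5 and 89.2 for LSK- XistΔ/Δ. The WT libraries of LSK+ were the low ones. In the fit, XistΔ/Δ minus WT was 0.82 ± 0.28 (SE) log2 units in LSK+ and -0.15 ± 0.28 in LSK- cells, with limma's unadjusted p = 0.0184 and 0.608 and an adjusted p of 1 for each. The difference between those differences, 0.97 ± 0.39, had an unadjusted limma p of 0.0391 and an adjusted p of 1.

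**Figure D3:**
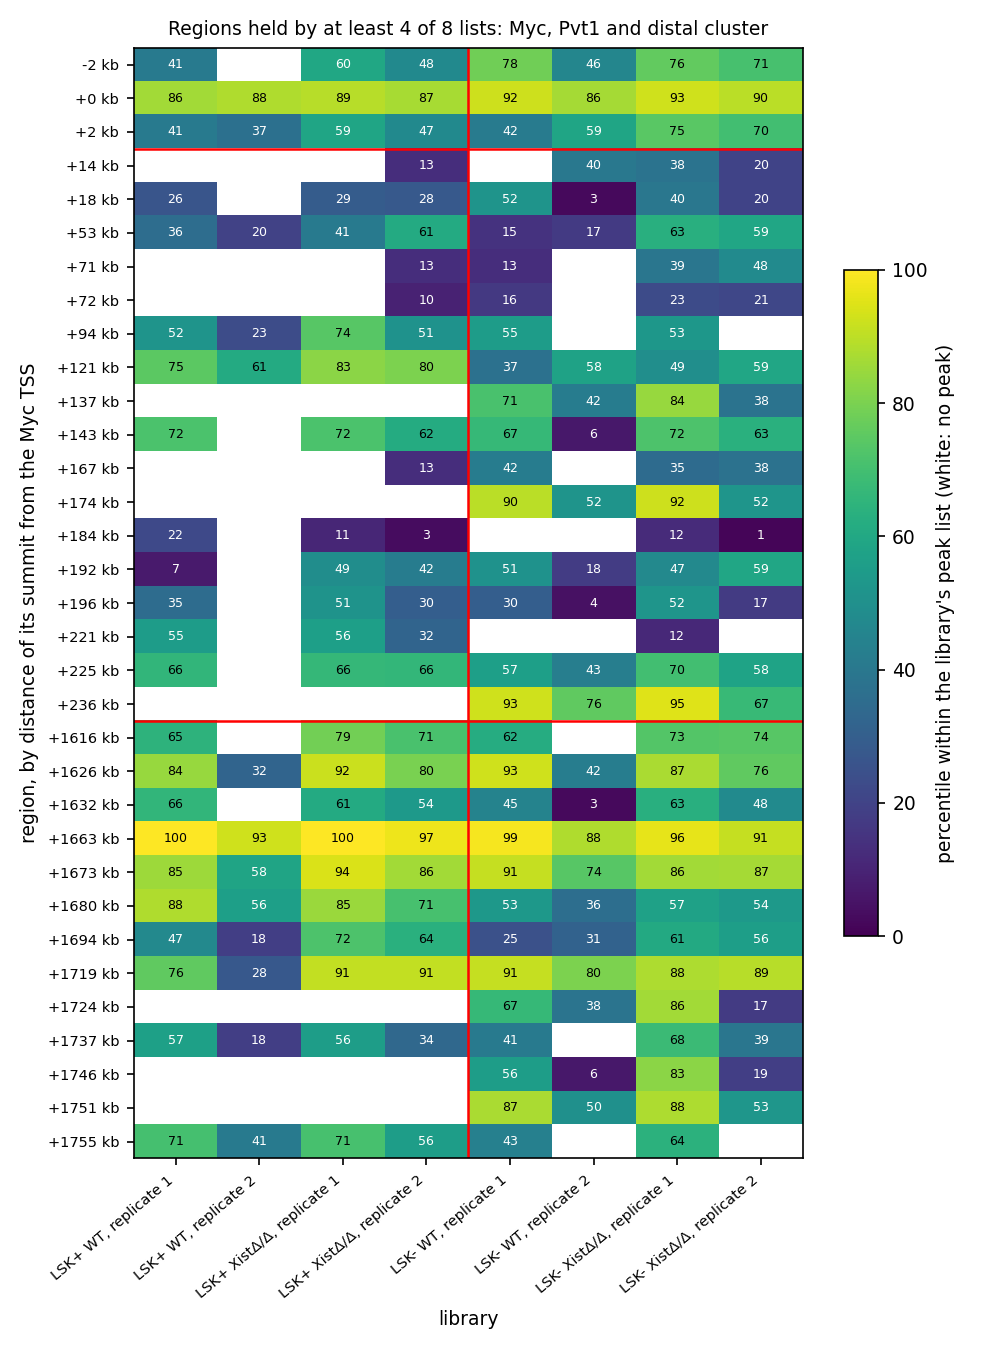
Percentile within the list (colour and printed value, white for no peak) of the regions at Myc, across Pvt1 and in the distal cluster that at least 4 of 8 lists held; rows are distances from the Myc TSS, columns are libraries, and red lines part the segments and the cell types. Rows such as +1663 kb are filled across, whereas 6 rows are white in all 4 LSK+ columns and filled in all 4 LSK- columns.

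Differences between LSK+ and LSK- cells were then measured in the 16 regions that every list held, with limma on log2 fold enrichment over all 21360 such regions. With the 4 group means alone, none of the 16 passed an adjusted p of 0.05, where 0.0655% of all regions were higher and 0.0234% lower in LSK+. The replicate numbers pair the libraries by platform, and with the replicate number as a block 3 of the 16 passed, 2 higher and 1 lower in LSK+, against 7.52% and 5.16% of all regions. The median of the 16 was -0.06 on the log2 scale, close to the -0.03 of all regions.

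The 2 that were higher in LSK+ lie in Pvt1 and in the distal cluster. At +121 kb (chr15:62106446-62107005, in an intron of Pvt1), percentiles were 74.8 and 61.2 for LSK+ WT and 82.8 and 80.4 for LSK+ XistΔ/Δ, against 37.3 and 57.8 for LSK- WT and 49.4 and 59.2 for LSK- XistΔ/Δ, so that every LSK+ library was above every LSK- library. LSK+ minus LSK- was 0.79 ± 0.20 (SE) log2 units and positive in 4 of 4 pairs, with limma's adjusted p = 0.143 without and 0.00478 with the block, where the SE was 0.14. Leaving out any 1 library from the blocked fit kept the adjusted p between 0.00738 and 0.042. The local background at this region was 0.789 to 4.36 fragments in LSK+ and 1.64 to 9.78 in LSK- libraries, and fold enrichment is measured against it.

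At +1680 kb (chr15:63665038-63665984, in an intron of Gm41335), percentiles were 88.2 and 56.3 for LSK+ WT and 84.9 and 71.0 for LSK+ XistΔ/Δ, against 53.3 and 36 for LSK- WT and 57.2 and 54.2 for LSK- XistΔ/Δ. The lowest LSK+ library fell just below the highest LSK- library. The difference was 0.60 ± 0.19 log2 units and positive in 4 of 4 pairs (limma, adjusted p = 0.215 without and 0.0163 with the block). In the blocked fit this call was lost without LSK+ WT replicate 1 (adjusted p = 0.0512), either LSK+ XistΔ/Δ library (0.0942 and 0.0536), LSK- WT replicate 1 (0.0759) or LSK- XistΔ/Δ replicate 1 (0.0816). The +1680 kb window is one of those shown above, with a single CAGCTG.

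The Mycl promoter was the region that was lower in LSK+, by 0.64 log2 units with an SE of 0.21, in 4 of 4 pairs (log2 difference -0.64; limma, adjusted p = 0.239 without and 0.016 with the block). That call was lost when LSK+ WT replicate 2, either LSK+ XistΔ/Δ library or LSK- WT replicate 2 was left out, with adjusted p between 0.0574 and 0.0912. Without LSK+ WT replicate 2 the difference itself shrank to -0.41, while the other 3 left it at -0.55 to -0.68. The other 13 had differences from -0.22 at the Mycn promoter to 0.11 at +1694 kb, none of which passed either fit.

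**Figure D4:**
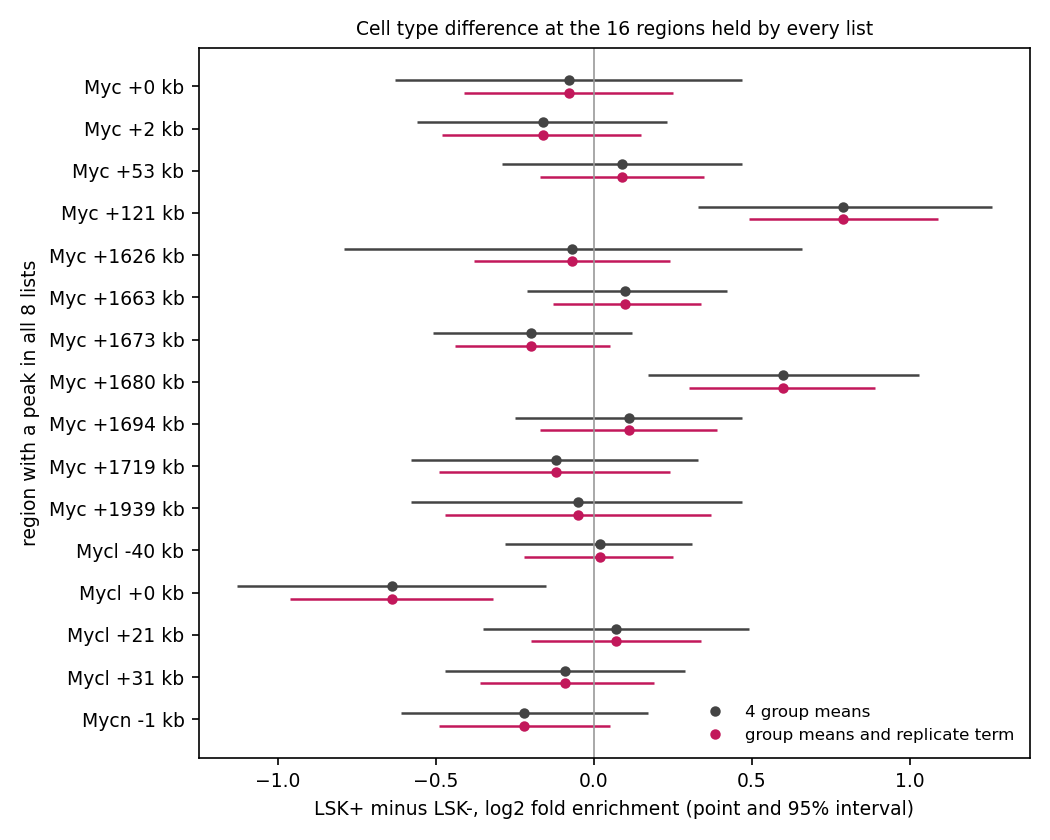
LSK+ minus LSK- in log2 fold enrichment (horizontal axis; point with 95% interval) for the 16 regions held by all 8 lists (vertical axis), from the fit of 4 group means (grey) and with the replicate term (pink). The intervals of Myc +121 kb, Myc +1680 kb and Mycl +0 kb leave 0 out in both fits, though only the fit with the replicate term passes the threshold adjusted over all regions.

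Some regions were found in one cell type and not in the other. Across all deposited peaks, 6 regions of the Myc window had a peak in every LSK- list and in no LSK+ list, among 53 member regions held by at least 4 lists, while 4.32% of all such regions did so. They were +137, +174 and +236 kb in introns of Pvt1 and +1724, +1746 and +1751 kb in the distal cluster. The reverse was seen at 1 member region, +36 kb of Mycn (chr12:12904489-12905676, in an intron of the noncoding gene 4930519A11Rik), where the 4 LSK+ percentiles were 6.14 to 23.9. Of all such regions, 1.19% did so.

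The strongest was +236 kb (chr15:62220806-62221689), with percentiles of 92.8 and 75.5 for LSK- WT and 95.2 and 67.4 for LSK- XistΔ/Δ and summits of 111, 48, 335 and 40 fragments. The local background there was 2.66 to 29.9 fragments in the LSK- lists, and without a peak an LSK+ list gives no value for either. At +174 kb (chr15:62158635-62159525) the percentiles were 89.7 and 51.6 for LSK- WT and 92.5 and 52.2 for LSK- XistΔ/Δ. At +137 kb (chr15:62122026-62122896) they were 71.1 and 41.8, and 84.4 and 38.0. In all 3 Pvt1 regions both replicate 1 libraries were above both replicate 2 libraries.

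The 3 cluster regions of this kind lie in the part of the cluster beyond +1719 kb. At +1751 kb (chr15:63736197-63737236, with its summit in an exon of the noncoding gene 4930449C09Rik) the percentiles were 87.2 and 50.0 for LSK- WT and 87.8 and 52.6 for LSK- XistΔ/Δ. At +1724 kb (chr15:63709299-63709833, in an intron of Gm41335) they were 67.1 and 38.4, and 86.3 and 17.2, and at +1746 kb (chr15:63730627-63731503, in an intron of 4930449C09Rik) 55.6 and 6.31, and 82.8 and 18.6. In all 3, replicate 1 was again above replicate 2 of the same LSK- genotype, while the neighbour at +1719 kb was open in all 8 lists.

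Some promoters of red cell genes had the same pattern of presence as these regions. The promoters of Hbb-bt, an adult beta globin gene, and Slc4a1, the anion exchanger of red cells, had peaks in all 4 LSK- lists and in no LSK+ list. Hbb-bt stood at 67.7 and 45.6 for LSK- WT and 75.8 and 50.3 for LSK- XistΔ/Δ, and Slc4a1 at 70.5 and 27.6, and 89.3 and 22.7. In both genotypes replicate 1 was above replicate 2 at both promoters, as at the 6 regions. That order was not particular to them. In LSK- lists it also held at the Myc promoter and at +1663 kb, which were open in every library, and was reversed at +121 kb. The replicate 1 lists of LSK- cells were the longer ones, with 71153 against 37578 peaks for WT and 91590 against 62533 for XistΔ/Δ. The part of erythroid cells in the LSK- pattern was not tested.

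**Figure D5:**
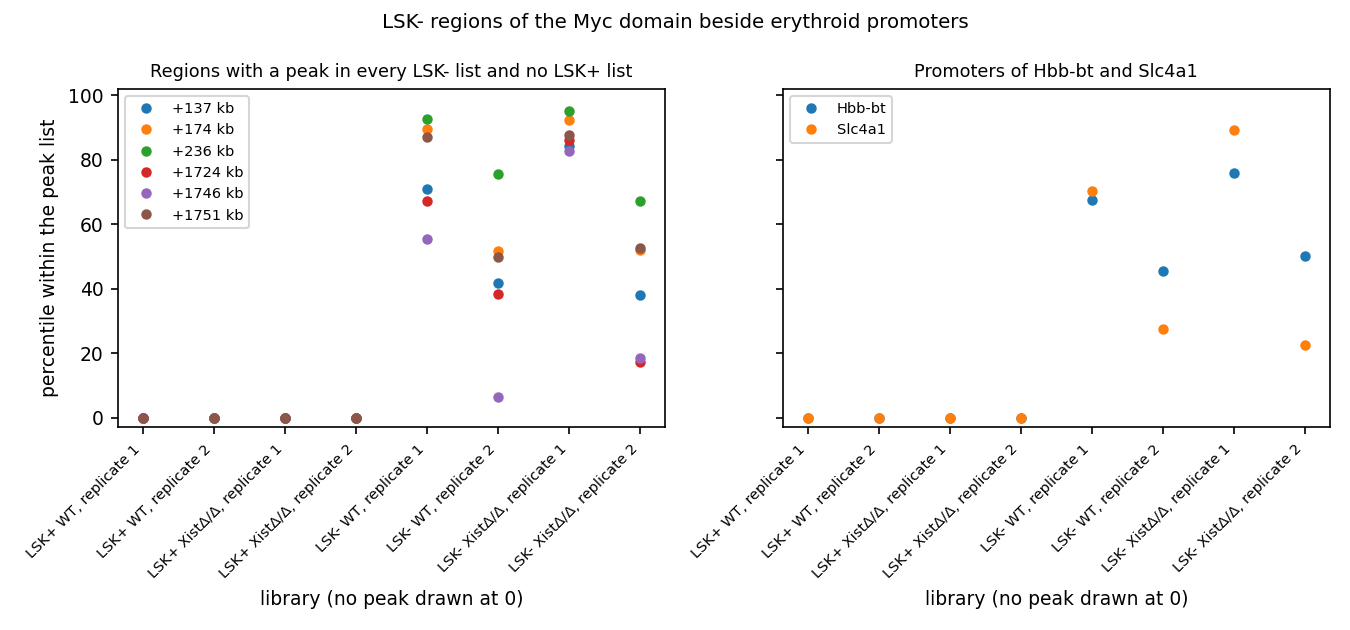
Percentile within the list (vertical axis; no peak drawn at 0) in each of the 8 libraries (horizontal axis), on the left for the 6 regions with a peak in every LSK- list and no LSK+ list and on the right for the promoters of Hbb-bt and Slc4a1. On both sides the LSK- replicate 1 points lie above the replicate 2 points of the same genotype, and all 6 regions and both promoters lie at 0 in LSK+.

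When each list was cut to its 29829 strongest peaks, so that all had the length of the shortest, 25 member regions were held by at least 4 lists. LSK- cells then had 3 regions of their own, +236, +1751 and -2 kb, against 5.54% of all such regions, and LSK+ cells 1, +1755 kb, against 4.65%. The latter (chr15:63740507-63741007, 38 bp from the TSS of the noncoding gene Gm41336) stood at 70.6 and 41.1 for LSK+ WT and 71.0 and 55.5 for LSK+ XistΔ/Δ, and at 43.4 and 64.2 in replicate 1 of LSK- WT and LSK- XistΔ/Δ, with no peak in either LSK- replicate 2. It and -2 kb were thus assigned by rank, since peaks of lower rank were present in the other cell type. The +1755 kb summit had 32, 12, 42 and 26 fragments in the LSK+ lists. In replicate 1 of LSK- WT and LSK- XistΔ/Δ it had 31 and 89. The local background there was 0.526 to 1.82 fragments in LSK+ lists and 4.35 and 13.5 in those LSK- lists, and -log10 p is measured against it. With a looser rule chosen after the values were seen, a peak in at least 3 of 4 lists of one cell type and none of the other, 14 of 69 member regions were on the LSK- side (8.1% of all such regions) and 4 on the LSK+ side (4.88%). The 14 included +206 kb in Pvt1, at 80.4 for LSK- WT replicate 1 and 85.2 and 15.5 for LSK- XistΔ/Δ, and +231 kb, at 55.1, 85.5 and 35.7 in the same libraries.

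The Myc window as a whole took up a larger share of the LSK- lists. It held 5.68 and 5.70 of every 10000 peaks in LSK+ WT, 5.58 and 6.33 for LSK+ XistΔ/Δ, 8.29 and 7.72 for LSK- WT and 9.17 and 7.68 for LSK- XistΔ/Δ, so that every LSK- list was above every LSK+ list. Of 1163 windows of the same length along the genome, 5.33% did the same. Among the strongest 29829 peaks the shares were 5.03 to 5.70 in LSK+ and 5.36 to 7.71 in LSK- lists and overlapped. The distal cluster held 1.45 to 2.68 of 10000 peaks in LSK+ and 2.51 to 2.72 in LSK- lists. Among the strongest 29829 peaks it held 2.68 to 3.35 in LSK+ and 2.35 to 3.35 in LSK- lists, and the mean difference, LSK+ minus LSK-, turned from -0.583 to 0.168. With 25 regions in 300000 bp it was fuller than the mean of 14.0 for such a window, but 24.3% of 8790 windows of that length held as many.

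The genotype comparison found no difference at these regions that passed the test. Of the 16 regions, none passed for XistΔ/Δ against WT over both cell types, within LSK+, within LSK- or for the interaction, with or without the block, and 0% of all 21360 regions did (limma; 372 had an unadjusted p under 0.05 over both cell types without the block, and the smallest adjusted p with it was 0.127). The largest mean differences over both cell types were 0.48 at +1939 kb (95% interval -0.05 to 1.01), 0.43 at +53 kb at the start of Pvt1 (0.04 to 0.81) and 0.42 at +1694 kb (0.06 to 0.78). The last 2 were positive in 4 of 4 pairs. An effect of that size at these regions could not be told from the spread once p-values were adjusted over all regions.

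By presence among the equal-length lists, none of 26 member regions was gained in LSK+ XistΔ/Δ (3.21% of all such regions) and 1 was lost, +1737 kb (2.22%). In LSK- XistΔ/Δ 1 of 29 was gained, +55 kb of Mycl (1.54%), and none was lost (1.74%). Both had peaks of lower rank elsewhere: +1737 kb (chr15:63721648-63722508) stood at 57.0 and 18.5 for LSK+ WT and at 55.5 and 33.7 for LSK+ XistΔ/Δ, and Mycl +55 kb (chr4:123050498-123051341, in an intron of Trit1) at 49.9 for LSK- WT replicate 1, with no peak in replicate 2, and at 76.8 and 65.2 for LSK- XistΔ/Δ. Over all deposited peaks, 6 of 52 member regions were gained in LSK+ (9.94% of all regions) and 6 of 80 in LSK- (6.77%), and none was lost (0.057% and 0.0667%). In each cell type and replicate number the XistΔ/Δ list was the longer one.

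Genes that work with Myc had open promoters in every library, as did 54.5% of 21728 protein-coding genes by the same rule. All 10 members of the Max network, the partners and antagonists of Myc such as Max, Mnt and the Mxd genes, had a promoter peak in all 8 lists, with a mean percentile of 82.0 to 94.0. So did the 12 genes of Myc cofactors and stability, among them Fbxw7, a ubiquitin ligase subunit that marks Myc for degradation (85.4 to 94.5), and the 15 Myc target genes, among them Ncl, Npm1 and Odc1 (85.7 to 92.8). Mxd4 stood at 99.4 to 100 and Mxd1 at 98.5 to 100. Without the block, none of the 37 passed in either comparison.

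With the block, 3 of the 37 passed between LSK+ and LSK-, 1 higher and 2 lower in LSK+, while 7.52% of all regions were higher and 5.16% lower, so that the count of the lists was near or below that of all regions. None passed between genotypes. In the Max network Mlxipl, a glucose-responsive partner of Mlx, was lower in LSK+ (-0.45 ± 0.12 log2 units, limma, adjusted p = 0.0332). Among the cofactors Pim1, a kinase that cooperates with Myc, was lower in LSK+ (-0.80 ± 0.14, adjusted p = 0.0061). Among the targets Tert, the catalytic subunit of telomerase, was higher in LSK+ (0.89 ± 0.14, adjusted p = 0.00349), at 69.3 to 83.1 in LSK+ and 36.6 to 57.9 in LSK- lists. Median differences were -0.09, -0.13 and 0.02 for the 3 lists, beside -0.03 for all regions.

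Around Mycl, 3 further regions were open in all 8 lists. They lay at -40 kb in an intron of Mfsd2a (81.7 to 93.1), at +21 kb, 29 bp from a TSS of Trit1, (70.6 to 87.8) and at +31 kb in an intron of Trit1 (49.9 to 90.0). The region at -10 kb, chr4:122984898-122985575, was missing from LSK+ WT replicate 2 only and stood at 81.0 to 88.3 in the other LSK+ and 66.7 to 81.6 in the LSK- lists. Mycn had a second promoter region at +0 kb, in an untranslated part of an exon, in 6 of 8 lists, at 23.3 to 64.3, and 2 other regions inside the gene, at +1 kb in 3 lists and at +3 kb in 5.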

How the data were processed

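ATAC-seq was run on 8 libraries, 2 in each of 4 groups named by the labels. Per the labels and the study's methods, the authors trimmed reads (Trim Galore), aligned them to mm10 (Bowtie2 2.3.5.1), removed mitochondrial reads and those with mapping quality under 30 (SAMtools 1.10) and called peaks in each library with MACS2 2.2.7.1 at a q-value of 0.01, with no control stated. The deposited lists give for each peak a score, which is 10 times the -log10 q-value as a whole number, the fold enrichment of the summit over the local background, and the -log10 p and -log10 q values. Duplicate removal and Tn5 offset are not given in the sources used here. Since these files hold no read counts, a region without a listed peak has no value, and depth enters through list length and -log10 p.

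Peaks on chromosomes 1 to 19 and X were merged where they overlapped by at least 1 bp, and a region took the strongest peak of each list. The fragments at a summit and the local background were solved from fold and Poisson p, which succeeded for 98.0% to 100% of peaks. The promoter region of a gene was the strongest with a summit within 3 kb of a TSS. Log2 fold enrichment was quantile normalized and fitted with limma 3.58.1 (R 4.3.3) over the regions that all 8 lists held, with Benjamini-Hochberg adjustment over all of them. The fit was tested first on simulated data in which libraries varied independently. As these data hold the shared replicate deviations given below, that test does not speak for the fit without the block. Percentiles of single promoters were compared by exact permutation tests. A region was assigned to a cell type by presence when all 4 of its lists and none of the other held it, among regions held by at least 4 lists, and to a genotype when both lists of one and neither of the other did. Motifs were searched with Python 3.11.15 within 100 bases of each summit in GRCm38.p6.

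Replicate numbers mark the sequencing platform, per the study's supplementary data, and deviations from group means correlated at 0.54 to 0.70 in all 6 pairs of replicate 1 libraries, so values with the number as a block are given where they change a call. Correlations between the replicates of a group were 0.59 to 0.76.

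The members, gene lists and rules were chosen with earlier results of these data known. Regions named with values are the 3 promoters, distal cluster regions in all 8 lists, and member regions called by limma or assigned by presence. Myc +2, +53, +206, +231 and +1939 kb, Mycl -40, -10, +21 and +31 kb and Mycn +0 kb were added after their values were seen. The Myc promoter sequence is not printed and 1 marker gene is not reported here. Alternatives covered scaling, measure, peak threshold, overlap, cluster bounds and each library left out.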

Additional observations from a re-analysis of the deposited data

How the results depend on the processing

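The number of regions called between LSK+ and LSK- cells, 19 in all, depended on every choice tried. It was 29 with median centring, 613 with log2 of -log10 p, 0 with regions in at least 6 of 8 libraries (limma; 5451 had an unadjusted p under 0.05), 11 with a -log10 q of at least 5, 2708 with the replicate block and 0 when any 1 library was left out (1783 to 4145 had an unadjusted p under 0.05). Member regions called were 0 in each of these except the replicate block, where they were 3, and 1 to 3 when 1 library was left out of that fit. The block made no other call among the members and changed none between genotypes, where 0 regions were called under every alternative.

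Counts of member regions by presence rest on few regions. LSK+ specific regions numbered 0 among the strongest 14914 peaks of each list, 2 when a peak had to cover 50% of the region and 4 in at least 3 of 4 libraries (added after seeing the data). LSK- specific regions numbered 6 over all peaks, 0 in the strongest 14914, 1 at 50% cover, 14 in at least 3 of 4 and 3 to 6 with 1 library left out, the 6 being without LSK- XistΔ/Δ replicate 2. Gained regions in LSK+ numbered 6 over all peaks, 1 in the strongest 14914, 1 at 50% cover and 0 to 4 with 1 library left out. Lost regions in LSK+ numbered 0 over all peaks, 0 in the strongest 14914, 2 when ranked by fold and 1 to 6 with 1 left out. In LSK-, gained regions numbered 6 over all peaks, 0 in the strongest 14914, 0 at 50% cover and 1 to 6 with 1 left out, and lost regions 0 to 3. The highest of these counts came without LSK+ WT replicate 1 for LSK+ (4 gained, 6 lost), without LSK- XistΔ/Δ replicate 2 for LSK- gained (6) and without LSK- XistΔ/Δ replicate 1 for LSK- lost (3).

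Promoter differences in percentile points turned direction. XistΔ/Δ minus WT at Myc was -1.18 when ranked by fold, -6.15 in equal-length lists and -0.000208 to 2.86 with 1 library left out. LSK+ minus LSK- at Mycn was -11.5 by fold and -3.11 to 8.12 with 1 left out, and XistΔ/Δ minus WT was -1.06 at Mycn and -1.91 at Mycl in equal-length lists. In peaks per 10000, LSK+ minus LSK- in the Myc window was -1.01 in equal-length lists, and in the cluster 0.168 in them and -0.906 with bounds of 1.5 to 1.9 Mb, while XistΔ/Δ minus WT in the cluster was 0.335. Log2 differences that reversed were all uncalled: Mycl -40 kb (-0.06 with median centring), Mycn -1 kb (0.21) and Myc +53 kb (-0.12), both with log2 of -log10 p. With 1 library left out they spanned 0 at Mycl -40 kb (-0.01 to 0.04), Mycl +21 kb (-0.07 to 0.21), Mycl +31 kb (-0.23 to 0.06), Myc +0 kb (-0.25 to 0.16), +53 kb (-0.03 to 0.21), +1626 kb (-0.34 to 0.21), +1719 kb (-0.28 to 0.04) and +1939 kb (-0.31 to 0.22). Of 528 alternative values, 451 were taken as unchanged. For counts of regions this meant an equal count or one within 1.5-fold, so that many are counts of 0 that stayed 0. For tested differences it meant the same sign and call, and for shares of peaks a move of less than the SD between replicates. These include 1 change of sign, of XistΔ/Δ minus WT in the Myc window from 0.341 to -0.0325 peaks per 10000 without LSK- XistΔ/Δ replicate 1. Where 1 library of a group was left, the fit assumed that it varies like the others. The causes were not tested.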
